A study of Mus musculus with 24 samples.

Results

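The respiratory chain of the mitochondrial inner membrane was examined here in the hindlimb buds of Nipbl+/- mouse embryos. Genes were taken by symbol, namely those starting with Nduf and a subunit letter, the Sdh genes for subunits a to d, and those starting with Uqcr, Cox followed by 4 to 8, or Atp5. Of the 19937 genes measured, 81 met this rule, and all 81 were tested without a filter on low values. They comprised 35 genes named as complex I, 4 of complex II, 8 of complex III, 17 named as complex IV and 17 of complex V. Ndufa4 and Ndufa4l2 are counted with complex I by name, although Ndufa4 is placed in complex IV today, and Cox7a2l is counted with complex IV although it acts in joining complexes.

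RNA came from both hindlimb buds of single embryos at E10.5, the right and the left together, with 12 wild type embryos and 12 stage-matched Nipbl+/- littermates of the RRS strain, with 1 Affymetrix Mouse Gene 1.0 ST array per embryo. Nipbl+/- embryos have 1 intact copy of Nipbl, the gene for the loader of cohesin onto chromosomes, and all mutants came from that 1 strain. The values are log2 intensities, so a difference of means is a log2 ratio. Whole buds hold several cell types, so fewer cells of a type and less RNA per cell cannot be told apart.

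Complexes I to IV pass electrons from NADH and succinate to oxygen and, except for complex II, pump protons across the inner membrane. Complex V, the ATP synthase, lets the protons flow back and makes ATP. Most of the complexes join catalytic core subunits to a larger set of accessory subunits, and a few mitochondrially encoded subunits are made inside the organelle. Several complex IV subunits exist as a ubiquitous form and as a form of muscle, testis or lung. Limb bud mesenchyme at this stage proliferates fast and is known to rely much on glycolysis.

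Nipbl was lower in the mutants, as the labels require, at a log2 intensity of 10.52 ± 0.12 in wild type embryos and 9.86 ± 0.12 in mutants (SD, n = 12 per genotype) (adjusted p = 2.42e-09 from limma). The hindlimb genes Tbx4 and Pitx1 were bright at 11.71 and 11.54 in wild type, and the forelimb gene Tbx5 was dim at 5.92. The interquartile range of an array's values ran from 3.34 to 3.84 on the log2 scale. It was narrowest in 3 arrays, wild type replicate 3 (3.34) and Nipbl+/- replicates 2 (3.40) and 9 (3.44), and results that rest on these arrays are given with and without them. Fewer mutants than wild type embryos were female by Xist, and a covariate for sex is given where it matters.

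None of the 81 respiratory chain genes passed the test between genotypes. At an adjusted p under 0.05, 0 were higher and 0 were lower in Nipbl+/- hindlimb buds by limma, where 0.286% of all genes were higher and 0.527% were lower. At an unadjusted p under 0.05, 1 was higher and 4 were lower, against 4.13% and 5.14% of all genes, and these are 1.23% and 4.94% of the 81. The smallest adjusted p was 0.301, for Ndufa11. The log2 differences ran from -0.19 for Ndufb3 to 0.12 for Cox6a1, which are mutant to wild type ratios of 0.877 and 1.09.

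The intervals of most of these genes were narrow on the scale of array intensity. They bound array ratios and not RNA amounts, since the paper reports larger changes by Q-RT-PCR than by array for Shh and several Hox genes. For 77 of the 81 genes the whole 95% interval lay within a 1.2-fold change in either direction, and for 51 it lay within 1.1-fold. The share within 1.2-fold was 95.1%, against 93.3% of all genes and 95.8% of the brightest 25% of genes. The widest bounds on each side were a ratio of 0.792 for Ndufb3 and of 1.26 for Cox6a1. The median standard error was 0.041, against 0.054 over all genes. These genes were also bright, with 48 of 81 among the top 10% of all genes by intensity and 6 under the 50th percentile.

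As a group the genes lay slightly to the lower side. In the mutant, 49 of 81 were below 0, which is 60.5%, against 53.5% of all genes and 45.7% of the brightest 25%. The median log2 difference was -0.015, against -0.0049 for all genes and 0.0065 for the brightest 25%. The sign of the median stayed below 0 under all 35 alternatives, where it ran from -0.023 to -0.0029.

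**Figure D1:**
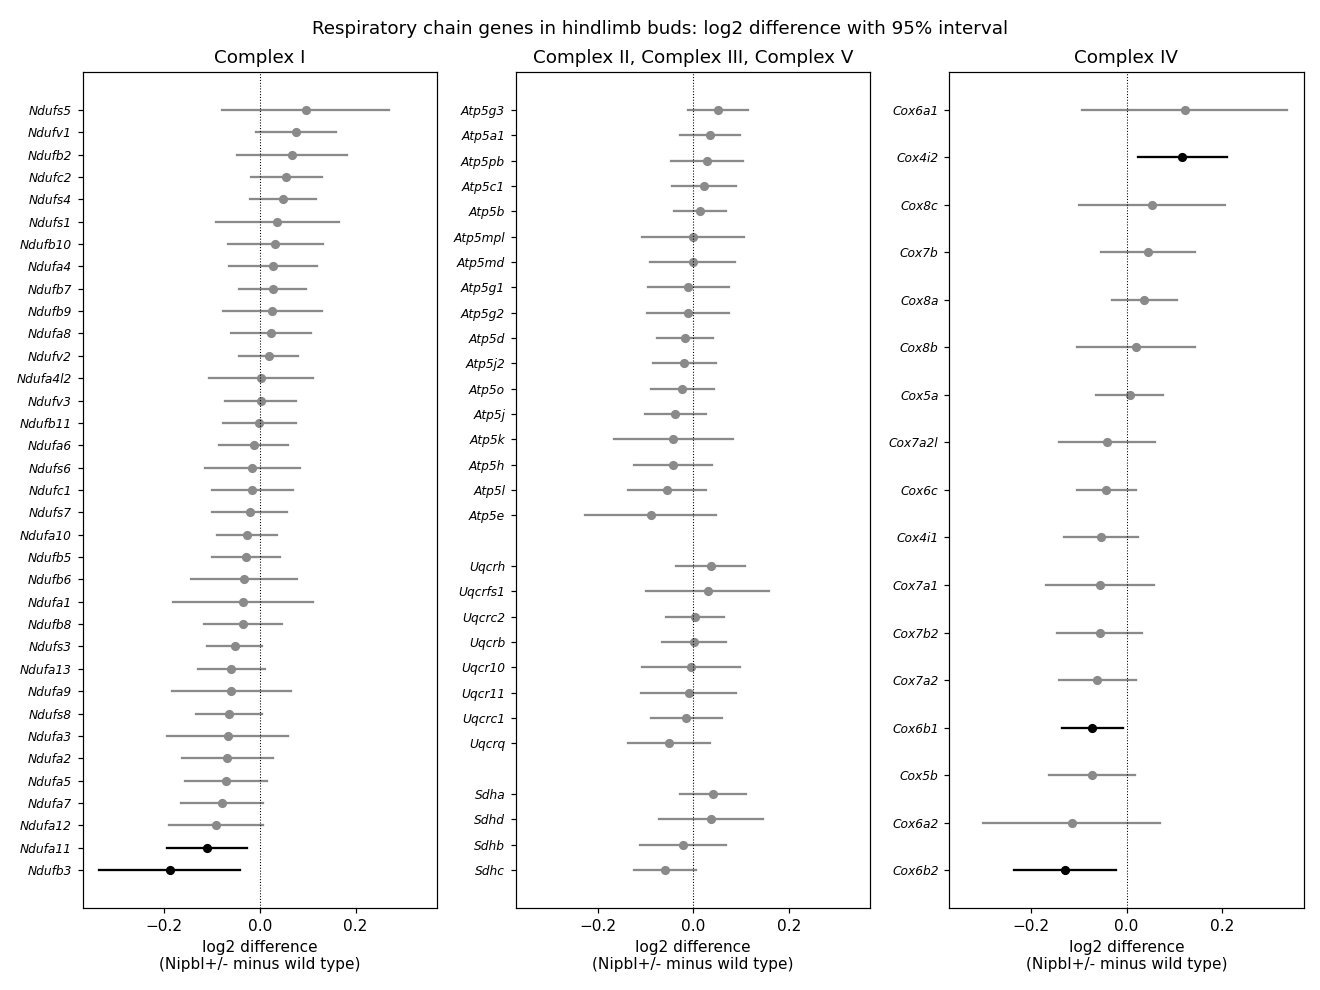
Log2 difference, Nipbl+/- minus wild type, of each of the 81 respiratory chain genes (points) with its 95% interval (lines), sorted within complexes I (left), V, III and II (middle, from top to bottom) and IV (right). Black marks the 5 genes with an unadjusted p under 0.05, and the intervals of the other 76 include 0.

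Complex I oxidises NADH and is the largest of the complexes. Its 35 genes had a median log2 difference of -0.017, with 14 above 0 and 21 below, and 2 of them, Ndufa11 and Ndufb3, were lower at an unadjusted p under 0.05. Both are accessory subunits of the membrane arm. Apart from these, the lowest was Ndufa12, with a log2 intensity of 9.17 ± 0.097 in wild type embryos and 9.08 ± 0.13 in mutants (SD, n = 12 per genotype) (adjusted p = 0.584 from limma). At the upper end stood Ndufs5 and Ndufv1, with log2 differences of 0.096 and 0.075 (adjusted p = 0.840 and 0.617 from limma). Ndufv1 binds NADH and FMN, the entry point of electrons.

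The core subunits of complex I, among them the carriers of its flavin and iron-sulfur clusters, lay on both sides of 0. Ndufs8 and Ndufs3 of the part that reduces ubiquinone had ratios of 0.956 and 0.964, and 2 and 1 of 12 mutants lay above the wild type mean of the respective gene. Ndufv2 and Ndufs1 of the part that oxidises NADH had ratios of 1.01 and 1.03, and 9 of 12 mutants lay above the wild type mean of each. None passed the test, with adjusted p from limma of 0.588 for Ndufs8, 0.606 for Ndufs3, 0.952 for Ndufv2 and 0.955 for Ndufs1.

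Ndufb3 had the largest difference of the 81 genes. Its log2 intensity had a lowest, median and highest value of 8.32, 8.80 and 8.94 in wild type and 8.19, 8.68 and 8.76 in Nipbl+/- embryos. The means were 8.78 ± 0.17 and 8.59 ± 0.20 (SD, n = 12 per genotype), and all 12 mutants lay below the wild type mean. Of the wild type embryos 7 lay above the highest mutant, and the groups overlapped. Wild type replicates 1, 6, 7 and 8 lay within the range of the mutants, at 8.758, 8.67, 8.75 and 8.73. The lowest embryos of both genotypes were those with the 3 narrow arrays. Wild type replicate 3 was at 8.32, and the only mutants below it were replicates 2 and 9, at 8.19 and 8.26. The log2 difference was -0.19 with a standard error of 0.072, a ratio of 0.877 with a 95% interval from 0.792 to 0.972 (unadjusted p = 0.0141, adjusted p = 0.321 from limma). The call changed with the treatment of array spread. With the interquartile range as a covariate, Ndufb3 was called lower (log2 difference -0.20, adjusted p = 0.0253 from limma), and it was also called with the array median as a covariate (-0.22, adjusted p = 0.0442) and with the first component of the residuals (-0.19, adjusted p = 0.0464). That component comes from the residuals of the same fit, so it leaves each log2 difference as it was. With these covariates, in the order given, 8.25%, 8.11% and 8.34% of all genes were lower at an unadjusted p under 0.05. Without the 3 narrow arrays the log2 difference of Ndufb3 was -0.16 (adjusted p = 0.107 from limma).

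Ndufa11 helps hold the membrane arm of complex I together. Its lowest, median and highest log2 intensities were 11.06, 11.28 and 11.35 in wild type and 11.02, 11.11 and 11.31 in mutant embryos, so the ranges overlapped almost fully while the medians differed. The means were 11.25 ± 0.099 and 11.14 ± 0.090 (SD, n = 12 per genotype), a ratio of 0.926 with a 95% interval from 0.874 to 0.982 (adjusted p = 0.301 from limma), with 10 of 12 mutants below the wild type mean. A dimmer probe set of the same gene had a log2 difference of -0.075 with a standard error of 0.041.

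Complex II is the succinate dehydrogenase, which also works in the tricarboxylic acid cycle. Its 4 genes split evenly around 0. The flavoprotein Sdha had a log2 intensity of 11.49 ± 0.072 in wild type embryos and 11.53 ± 0.066 in mutants (SD, n = 12 per genotype), with 11 of 12 mutants above the wild type mean. The membrane anchor Sdhc had 11.37 ± 0.061 and 11.31 ± 0.063 (SD, n = 12 per genotype), with 12 of 12 mutants below it. The ratios were 1.03 for Sdha and 0.960 for Sdhc (adjusted p = 0.802 and 0.602 from limma). The iron-sulfur subunit Sdhb and the anchor Sdhd had ratios of 0.985 and 1.03. All 4 intervals lay within 1.2-fold.

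Complex III passes electrons from ubiquinol to cytochrome c, and its 8 genes lay nearest to 0. Their median log2 difference was -0.0018, with 4 above 0 and 4 below, and ratios ran from 0.965 for Uqcrq to 1.03 for Uqcrh. The core proteins Uqcrc1 and Uqcrc2 had log2 differences of -0.015 and 0.0043, and the Rieske iron-sulfur protein Uqcrfs1 had one of 0.030. The smallest adjusted p of the complex was 0.807 from limma, and all 8 intervals lay within 1.2-fold.

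Complex IV, cytochrome c oxidase, had the largest median size of log2 difference, 0.056 in either direction, against 0.037 over all 81 genes. Its 17 genes had a median log2 difference of -0.042, with 7 above 0 and 10 below. Among its subunits, Cox4i2 was higher and Cox6b1 and Cox6b2 were lower at an unadjusted p under 0.05. With each gene's probe sets averaged the median was -0.0078, and with Ndufa4 and Ndufa4l2 moved to this complex and Cox7a2l left out it was -0.020. Cox5b, a zinc-binding subunit on the matrix side, stood at a ratio of 0.951 (adjusted p = 0.674 by limma) and Cox5a at a log2 difference of 0.0065. Cox6a1, with the highest log2 difference of the 81 genes, varied widely within each genotype, at 11.47 ± 0.29 in wild type embryos and 11.59 ± 0.26 in mutants (SD, n = 12 per genotype) (adjusted p = 0.825 from limma).

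Cox6b1, the ubiquitous form of a subunit that faces cytochrome c, was among the brightest genes. Its lowest, median and highest log2 intensities were 12.25, 12.34 and 12.43 in wild type and 12.10, 12.28 and 12.35 in mutant embryos. The means were 12.34 ± 0.052 and 12.27 ± 0.067 (SD, n = 12 per genotype), a ratio of 0.951 (unadjusted p = 0.0277, adjusted p = 0.435 from limma). With each array's median set to 0 the unadjusted p was 0.154 from limma. Of the mutants 5 lay below the lowest wild type embryo, and 5 wild type embryos lay above the highest mutant. Cox6b2, the testis form, had 8.37, 8.55 and 8.86 in wild type and 8.22, 8.46 and 8.64 in mutant embryos, again with overlap. Its ratio was 0.915 (unadjusted p = 0.0205, adjusted p = 0.378 from limma).

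Cox4i2, the form of subunit 4 that is known from lung and from low oxygen, was the only member higher at an unadjusted p under 0.05. Its lowest, median and highest log2 intensities were 8.004, 8.13 and 8.28 in wild type and 8.05, 8.26 and 8.53 in Nipbl+/- embryos. The means were 8.16 ± 0.087 and 8.27 ± 0.13 (SD, n = 12 per genotype), with 11 of 12 mutants above the wild type mean and 6 above the highest wild type embryo. The ratio was 1.08 with a 95% interval from 1.02 to 1.16 (unadjusted p = 0.0166, adjusted p = 0.345 from limma). Its adjusted p lay between 0.0826 and 0.523 over the alternatives. The ubiquitous Cox4i1 stood at a ratio of 0.964 (adjusted p = 0.744 by limma), on the other side of 0.

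**Figure D2:**
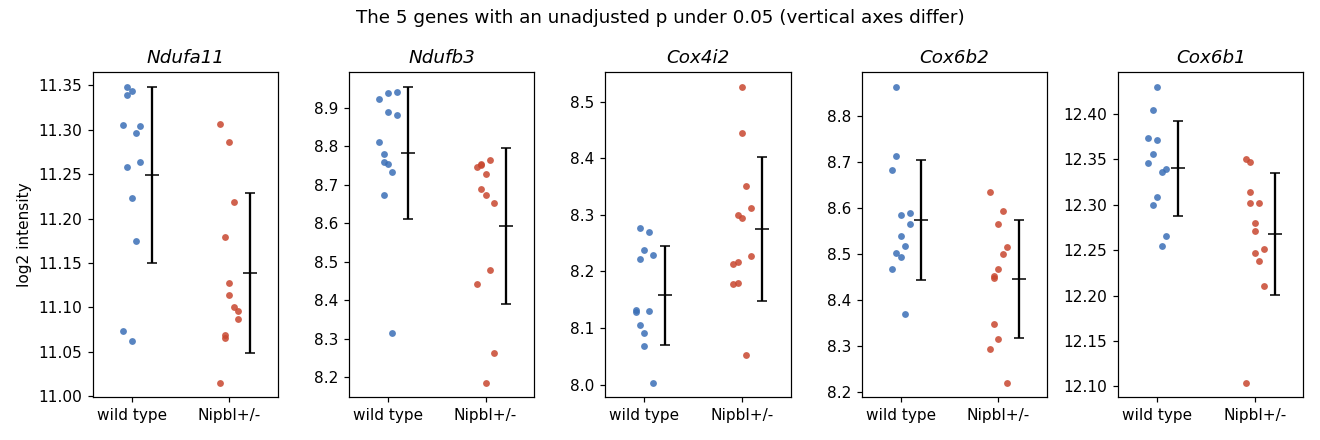
Log2 intensity of Ndufa11, Ndufb3, Cox4i2, Cox6b2 and Cox6b1; every point is 1 embryo, 12 wild type in blue and 12 Nipbl+/- in red, and black bars give mean and SD by genotype. The vertical axes differ and do not start at 0, and in every panel the genotypes overlap.

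Complex V, the ATP synthase, had 5 genes above 0 and 12 below, with a median log2 difference of -0.010. No gene reached an unadjusted p under 0.05, and all 17 intervals lay within 1.2-fold. The catalytic subunits Atp5a1 and Atp5b had ratios of 1.02 and 1.01, and Atp5b had the smallest spread, at 13.34 ± 0.041 in wild type embryos and 13.36 ± 0.040 in mutants (SD, n = 12 per genotype). The stalk subunit Atp5c1 had a ratio of 1.02. The ring subunit c is made from the genes Atp5g1, Atp5g2 and Atp5g3, which had ratios of 0.993, 0.993 and 1.04. The lowest gene of the complex was Atp5e, the epsilon subunit, with a ratio of 0.940 (adjusted p = 0.773 from limma).

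A list of 22 main subunits held the core subunits of complex I, complex II as a whole, Uqcrc1, Uqcrc2 and Uqcrfs1, the alpha, beta, gamma and c subunits of complex V, and Cox4i1, Cox5a and Cox5b. The last 3 are nuclear subunits, since the catalytic core of complex IV is encoded in mitochondrial DNA. The median log2 difference of the list was 0.0054, with 12 above 0 and 10 below. None was under an unadjusted p of 0.05, and all 22 intervals lay within 1.2-fold. The 29 complex I genes outside this list had a median of -0.017, with 11 above 0 and 18 below. These are descriptions, and the difference between the listed and the other subunits was not tested.

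The mean over the 81 genes was also taken in each embryo, relative to the wild type mean, to see whether some embryos stood apart. Among wild type embryos it spanned -0.090 to 0.034 with a median of 0.0018, and among mutants -0.076 to 0.039 with a median of -0.015. The genotypes overlapped over nearly the whole range. The lowest wild type embryo was replicate 3, whose array had the narrowest range, and the lowest mutant was replicate 10. Without the 3 narrow arrays the means were 0.0082 ± 0.019 among wild type (SD, n = 11) and -0.011 ± 0.030 among mutant embryos (SD, n = 10).

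For complex IV the mean was 0 ± 0.028 in wild type embryos and -0.018 ± 0.051 in mutants (SD, n = 12 per genotype). The highest embryo for this complex, at 0.114, was Nipbl+/- replicate 2, which also has a narrow array. Without the 3 narrow arrays the complex IV means were 0.0016 ± 0.029 (SD, n = 11) and -0.034 ± 0.030 (SD, n = 10). With all arrays the genotype means of each complex differed by less than the SD within either genotype. In the mutants complex I was at -0.018 ± 0.040 (SD, n = 12) and complex V at -0.012 ± 0.032 (SD, n = 12). For complex IV this did not hold without the 3 narrow arrays. The SD describes the spread between embryos and not the precision of a mean.

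**Figure D3:**
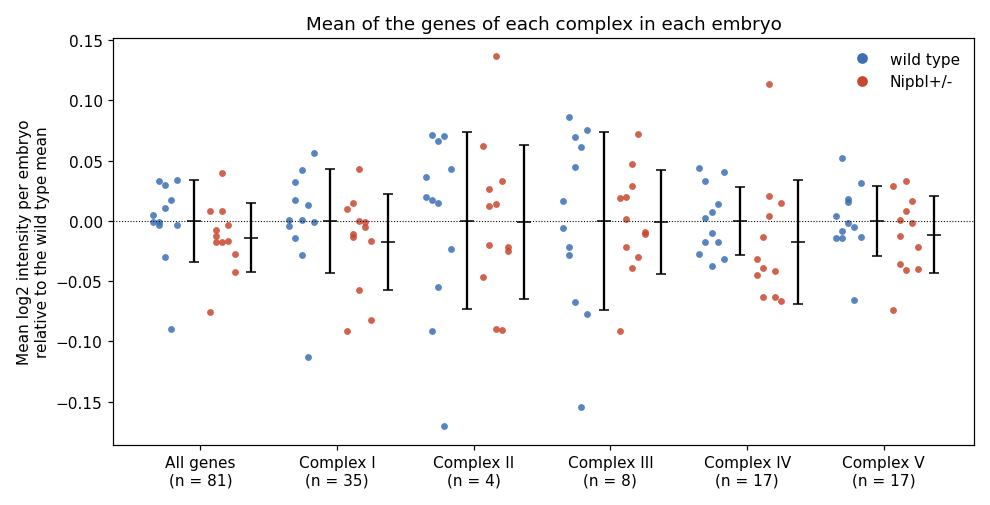
Mean log2 intensity over the genes of each complex in each embryo, relative to the wild type mean (dotted line); every point is 1 embryo, 12 wild type in blue and 12 Nipbl+/- in red, and black bars give mean and SD by genotype. Wild type replicate 3 is the lowest embryo for all genes (-0.090) and for complexes I, II and III, and Nipbl+/- replicate 2 is the highest for complex IV (0.114).

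How many genes passed an unadjusted p of 0.05 depended on how the spread of the arrays was treated. With the interquartile range of each array as a covariate, 12 of 81 genes (14.8%) were lower and 1 was higher, where 8.25% and 6.47% of all genes were. The 12 included the same 4 genes, with 8 in complex I, 1 in complex II and 3 in complex IV. Without the 3 narrow arrays 9 were lower (11.1%, against 7.34% of all genes), without wild type replicate 3 alone also 9 (against 6.38%), and without Nipbl+/- replicate 2 alone 7 (8.64%, against 6.70%). With array medians set to 0, 3 were lower (3.70%, against 3.46%). Ndufb3 was the only member past an adjusted p of 0.05 under any alternative.

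The isoform pairs were compared as the difference within each embryo, relative to the wild type mean of that difference. Levels of different probe sets cannot be compared, but a change of their difference between genotypes can. For Cox4i2 minus Cox4i1 the lowest, median and highest values were -0.17, -0.00089 and 0.16 in wild type and 0.043, 0.13 and 0.42 in Nipbl+/- embryos. All 12 mutants lay above the wild type mean, 5 lay above the highest wild type embryo, and 8 wild type embryos lay below the lowest mutant. The balance shifted by 0.17 on the log2 scale, with an SD of 0.10 in each genotype, and by 0.19 without the 3 narrow arrays. The pair was picked out after its values were seen and was given no test.

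In the other pairs the mutants lay on both sides of the wild type mean. Of the 8 tissue or oxygen dependent isoforms, 6 were under the 50th percentile of intensity, all but Cox4i2 and Cox6b2. The dimmest was Cox7b2, with a wild type mean of 4.73, at percentile 9.88. Shifts of these 6 rest on dim probe sets. The muscle form Cox6a2 against Cox6a1 shifted by -0.24, with SDs of 0.37 in wild type and 0.45 in mutant embryos. Cox7a1, also a muscle form, shifted by 0.0051 against Cox7a2, and by -0.051 without the 3 narrow arrays, since Nipbl+/- replicate 2 alone was at 0.667. Cox8b shifted by -0.017 against Cox8a, and by -0.044 without these arrays. Among testis forms, Cox7b2 shifted by -0.10 against Cox7b, and by -0.17 without the narrow arrays, where 1 of 10 mutants lay above the wild type mean. Cox6b2 shifted by -0.056 against Cox6b1 (-0.064 without them) and Cox8c by 0.017 against Cox8a (4.8e-04 without them). Ndufa4l2, known to be induced at low oxygen, shifted by -0.025 against Ndufa4 (-0.013 without them), and the value for Cox6a2 without them was -0.23.

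**Figure D4:**
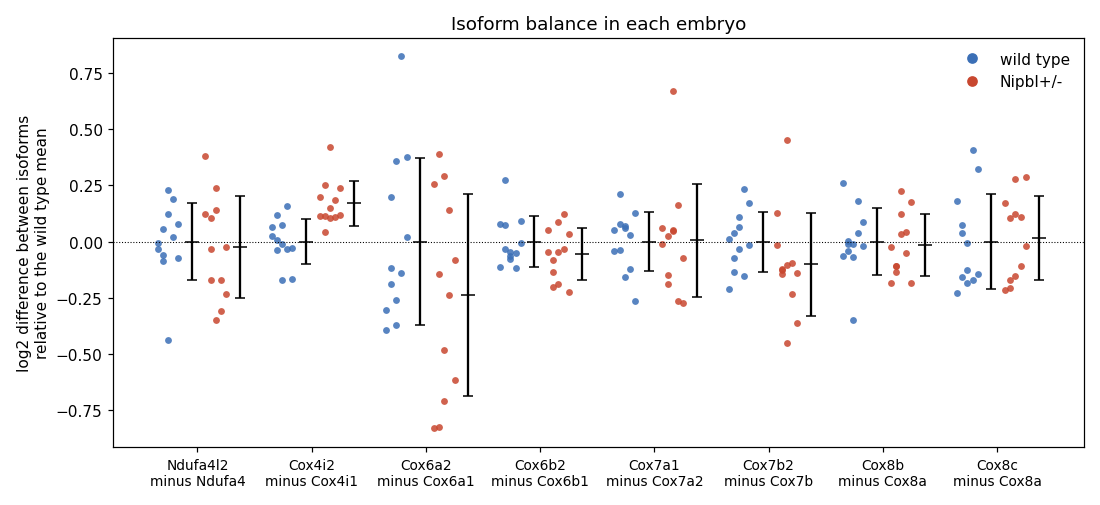
Difference in log2 intensity between a tissue or oxygen dependent isoform and its ubiquitous partner, relative to the wild type mean (dotted line); every point is 1 embryo, 12 wild type in blue and 12 Nipbl+/- in red, and black bars give mean and SD by genotype. For Cox4i2 minus Cox4i1 all 12 mutants lie above the dotted line, at 0.043 to 0.42.

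Mitochondrially encoded subunits were represented by 2 genes, COX2 of complex IV and ND3 of complex I. COX2 had a log2 intensity of 13.15 ± 0.12 in wild type embryos and 13.14 ± 0.12 in mutants (SD, n = 12 per genotype). ND3 had 13.34 ± 0.065 and 13.37 ± 0.057 (SD, n = 12 per genotype). Their ratios of 0.991 and 1.02 did not pass the test (adjusted p = 0.984 and 0.907 from limma).

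Genes that make and supply the chain gave 0 calls in either direction by limma. Of 40 assembly factors, 0 were under an unadjusted p of 0.05, with 23 above 0 and 17 below. Of 17 electron and adenine nucleotide carriers, 1 was under an unadjusted p of 0.05, the lower Etfb, which delivers electrons from fatty acid oxidation (ratio 0.934, adjusted p = 0.417 from limma). Of 13 tricarboxylic acid cycle genes the mitochondrial isocitrate dehydrogenase Idh2 was the only one under 0.05 (ratio 0.957, adjusted p = 0.435 from limma). Of 77 mitochondrial ribosomal proteins, 6 were under an unadjusted p of 0.05, 3 in each direction, led by Mrps28 with a ratio of 1.16 (adjusted p = 0.165 from limma). The 4.13% and 5.14% of all genes given above are the background of these counts.

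Genes that regulate the chain lay on both sides of 0. Of 11 regulators, 3 were higher and 1 was lower at an unadjusted p under 0.05, against 4.13% and 5.14% of all genes. Of these regulators, 0 passed the adjusted test by limma. The higher ones were Nrf1, which binds promoters of many respiratory chain genes, Gabpb1, a subunit of an Ets factor (GABP) that does the same, and Creb1. Their ratios were 1.08, 1.07 and 1.05, with adjusted p from limma of 0.257, 0.252 and 0.481, and 11 of 12 mutants lay above the wild type mean for each. Gabpb1 passed with the first residual component (adjusted p = 0.0131 from limma) and with the interquartile range covariate (0.0242). Of all genes, 7.01% and 6.47% were higher at an unadjusted p under 0.05 with these. Nrf1 had a lowest, median and highest log2 intensity of 9.34, 9.48 and 9.61 in wild type and 9.45, 9.58 and 9.75 in mutant embryos. The lower one was Epas1, a factor active at low oxygen, with a ratio of 0.931 (adjusted p = 0.248 from limma). Nrf1 and Creb1 were named after their values were seen.

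Genes of mitochondrial DNA maintenance and transcription leaned to the higher side, with 10 of 12 above 0 and a median log2 difference of 0.052. The share below 0 was 16.7%, against 53.5% of all genes, whose median was -0.0049. At an unadjusted p under 0.05, 3 of the 12 were higher and 0 lower, against 4.13% and 5.14% of all genes. Tfb2m, needed to start transcription of mitochondrial DNA, had a lowest, median and highest log2 intensity of 9.56, 9.81 and 10.05 in wild type and 9.47, 10.23 and 10.43 in Nipbl+/- embryos. The mutants spread more widely than the wild type embryos, on both sides of their range. Its log2 difference was 0.30 with a standard error of 0.078, a ratio of 1.23 (adjusted p = 0.0628 from limma). Among other alternatives, Tfb2m passed with the interquartile range covariate (adjusted p = 0.0135 from limma) and without the 3 narrow arrays (0.00277), and had a log2 difference of 0.16 with its probe sets averaged (adjusted p = 0.411). Tfam, which packs mitochondrial DNA, had a log2 difference of 0.14 (adjusted p = 0.372 from limma). It passed with the first residual component (0.0232) and with the interquartile range covariate (0.0433). Of all genes, 7.01% and 6.47% were higher at an unadjusted p under 0.05 with these. The component comes from the residuals of the same fit and left the log2 difference of Tfam at 0.14. Lrpprc, which stabilises mitochondrial messengers, stood at a ratio of 1.09 (adjusted p = 0.459 by limma) and was named after its value was seen.

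Nrf1 and GABP are known to act through sites near the start of many of these genes, so the promoters were read for their motifs. RefSeq promoters of GRCm38.p6, from 250 bases before to 50 after the start, were at hand for 66 of the 81 genes, as 71 promoters. The palindromic NRF1 core CGCATGCG was in 9 of 71 (12.7%), against 2.70% of 19115 promoters of all measured genes. The Ets core CCGGAAG was in 17 (23.9% against 12.1%) and the YY1 core AAGATGGC in 10 (14.1% against 3.19%), on either strand. TATAAA was in 12.7% against 11.5%. These are descriptions of letters, no test was made, and promoters are listed more than once for some genes.

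The 7 genes whose NRF1 core lies before the start are shown because they carry the motif of the regulator described above, and they belong to 3 complexes. Capitals mark the core, the sequences run 5′ to 3′ on the strand of the gene, and positions are on GRCm38.p6. Each window stops at the start of the transcript or at the end of the promoter sequence where these come first.
Ndufa8: gtcgctggagaCGCATGCGc (chr2:36049339-36049358, minus strand, motif from 9 bases before the start)
Ndufa11: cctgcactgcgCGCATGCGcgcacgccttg (chr17:56717692-56717721, plus strand, motif from 59 bases before the start)
Cox6a1: caggaacggggCGCATGCGcgctctcgctc (chr5:115349101-115349130, minus strand, motif from 161 bases before the start)
Atp5g2: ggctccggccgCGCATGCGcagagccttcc (chr15:102671070-102671099, minus strand, motif from 41 bases before the start)
Atp5j: aggccagaataCGCATGCGtacagtgcagt (chr16:84835105-84835134, minus strand, motif from 147 bases before the start)
Atp5k: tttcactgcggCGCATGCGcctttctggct (chr5:108434430-108434459, minus strand, motif from 49 bases before the start)
Atp5l: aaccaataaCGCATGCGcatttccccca (chr9:44920965-44920992, minus strand, motif from 241 bases before the start)

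Of these genes, Ndufa11 was lower at an unadjusted p under 0.05 and Cox6a1 had the highest log2 difference of all 81. Ndufa8 had a ratio of 1.02, Atp5g2 of 0.993, Atp5j of 0.974, Atp5k of 0.972 and Atp5l of 0.963, so genes sharing the core lay on both sides of 0. The promoters of Ndufb3 and Cox6b2 held none of the NRF1, Ets and YY1 motifs in the 100 bases before the start, and Cox6b1 held the Ets core there. Cox4i2 was not among the genes with a promoter at hand.

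Of the markers of other cell types, 0 genes passed the adjusted test by limma. All 6 macrophage markers were below 0, where 53.5% of all genes were. Of the 6, Csf1r and Fcgr1 were lower at an unadjusted p under 0.05, where 5.14% of all genes were. The summed log2 level of the 6 spanned 9.18 to 9.36 among wild type and 9.11 to 9.32 among mutant embryos. The summed erythroid level ran from 14.78 to 15.14 and from 14.69 to 15.12, with 4 of 6 markers below 0. The lowest was Gata1, an erythroid transcription factor, at a ratio of 0.875 (adjusted p = 0.0809 from limma), with 11 of 12 mutants below the wild type mean. The globin Hbb-bh1 and the factor Klf1 had ratios of 0.934 and 0.953, with 10 of 12 mutants below for each, and the globins Hba-x and Hbb-y had 1.01 and 0.983. The summed endothelial level ran from 12.65 to 12.89 and from 12.57 to 12.89. Higher at an unadjusted p under 0.05 were Epcam of ectoderm and ridge, Msx2 of limb bud mesenchyme and Pax3 of muscle precursors. Their log2 differences were 0.148, 0.136 and 0.143 (adjusted p = 0.254, 0.356 and 0.42 from limma). Above 0 were 5 of 6 muscle precursor markers and 4 of 5 of Schwann cell and nerve. It was 4 of 6 for mesenchyme and 3 of 6 for ectoderm and ridge. All 3 hindlimb markers were below 0. The part of these cell types in the values of the respiratory chain genes was not tested.

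Of the 81 genes, 3 lie on the X chromosome. With a covariate for embryo sex the log2 difference of Ndufa1 was -0.077 (unadjusted p = 0.334 from limma), that of Ndufb11 0.014 (0.730) and that of Cox7b 0.037 (0.499).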

How the data were processed

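Hindlimb bud RNA of 12 wild type and 12 Nipbl+/- embryos was measured on 24 arrays. The authors ran the array files through GenePattern. According to the submitters' notes this used RMA (version not stated there), which corrects the background, equalizes the arrays by quantiles and leaves 1 deposited log2 intensity for each probe set. Quantile normalization hides a change shared by most genes. Of 28159 probe sets, 21640 had 1 platform gene symbol, and the brightest of each gene over all arrays gave 19937 genes. All 81 members matched RefSeq genes of GRCm38.p6 by Entrez ID. Many of these genes have near-identical processed pseudogenes that a probe set may also detect.

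Genotypes were compared with limma 3.58.1 (lmFit and eBayes, two-sided) in R 4.3.3, with Benjamini-Hochberg adjustment over all genes. Precision is limited by the number of arrays. The fit was tested on simulated data. Replicate numbers were checked for pairing, and the correlations of same-numbered embryos ran from -0.35 to 0.28 with 5 of 12 over 0.1. The labels do not say whether equal numbers mark littermates, and these values do not settle it. Numbers were not treated as pairs in the main fit. Alternatives covered the probe set, dim genes, the variance model, array medians, array weights, the replicate block, sex, the first residual component, 2 covariates of the arrays and leaving out each array. Leaving out the 3 arrays of narrow range was added after seeing the data.

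The named genes are members with an unadjusted p under 0.05, the 2 highest and 2 lowest of each complex, a list of main subunits, isoforms with their partners, and the 2 smallest p of each related list. Members and lists were chosen with earlier results of these data known. Plots were made in Python 3.11 (matplotlib 3.10.9).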

Additional observations from a re-analysis of the deposited data

How the results depend on the processing

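No respiratory chain gene was called higher under any of the 35 alternatives. Ndufb3 was the 1 gene called lower with the first residual component, with the interquartile range covariate and with the array median covariate. At an unadjusted p under 0.05, 2 genes were higher with the sex covariate, the first residual component and the array median covariate, and from 1 to 2 when single arrays were left out. Lower at that threshold were 7 with trended and robust variance (8.64% of the 81, against 4.99% of all genes), 9 with array weights (11.1% against 7.93%), 10 with the first residual component (12.3% against 8.34%), 12 with the interquartile range covariate (14.8% against 8.25%), 12 with the array median covariate (14.8% against 8.11%) and 9 without the 3 narrow arrays (11.1% against 7.34%). As reported it was 4 (4.94% against 5.14%), so the share of all genes rose as well under each of these except trended and robust variance. When single arrays were left out the count ran from 3 to 9, with 9 without wild type replicate 3 and 7 without Nipbl+/- replicate 2. The cause was not tested. The replicate block leaves each log2 difference as it was, so the median stayed at -0.015. With the block 0 members were called, so it changed no call of a member. Of 12 wild type embryos, 3 correlated best with the mutant of their own number. Tfb2m, which is no member, passed with the replicate block (adjusted p = 0.0231 from limma) and with trended and robust variance (0.0414). Of 38 other named genes, 8 changed sign under some alternative, as did the medians of complexes II, III and V.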

Other observations

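Several chain genes have more than 1 probe set or share one with a near copy. Of the 81 genes, 16 had 23 dimmer probe sets, of which 13 had the sign of the brightest. The largest gap was for Atp5h, the d subunit of the ATP synthase, whose brightest probe set had a log2 difference of -0.042 and whose dimmest, at a mean log2 intensity of 5.37, had -0.28 (unadjusted p = 0.0123 from limma). A second probe set of Atp5g2 had a log2 difference of -0.14 (unadjusted p = 0.0352 from limma), against -0.010 for the brightest. These 2 were the only dimmer probe sets under an unadjusted p of 0.05.

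Another 6 probe sets carried 2 gene symbols and were not among the 81. Those shared by Gm12338 and Cox7c had log2 differences of 0.19, -0.050 and -0.026, those shared by Ndufb4b and Ndufb4 of -0.13 and -0.041, and the one shared by Ndufs5 and Ndufs5-ps of 0.066. The unadjusted p from limma ran from 0.139 to 0.391 over these 6.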
